A study of Rattus with 6 samples.

Results

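Semaphorins, ephrins, Slits and netrins are ligands that steer cells and growing axons, and plexins, Eph receptors, Robos and Unc5 proteins are their receptors. The genes of these 8 families were followed in rat bone marrow mesenchymal stem cells (BMSC), the plastic-adherent stromal cells of marrow that can form bone, fat and cartilage. Members were the rows of the deposited count table whose symbol began with Sema, Plxna to Plxnd, Epha, Ephb, Efna, Efnb, Slit, Robo, Ntn or Unc5a to Unc5d, with a class number where the family has one. This gave 66 of 30211 genes: 35 ligands, 30 receptors and Unc5cl, an UNC5C-like gene that is not a guidance receptor but matched the naming rule. A RefSeq rat gene table held the symbol of all 66 members, each on the same chromosome. Epha6 stood in the count table under the contig name AABR07033882.1, outside the rule, with 2 counts in all.

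Most class 3 semaphorins are secreted and signal through a plexin paired with a neuropilin, which binds the ligand, while membrane-bound semaphorins bind plexins directly. Plexins act on small GTPases and so on the actin skeleton and on integrin adhesion. Ephrins are tethered to the cell surface and signal in both directions when they meet an Eph receptor tyrosine kinase on a neighbouring cell. In bone, semaphorins and ephrins are known to carry signals between osteoblasts, osteoclasts, nerves and vessels.

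The samples were wild-type BMSC from rat bone, collected on day 4, with 3 control libraries and 3 libraries from cells given dexamethasone, a synthetic glucocorticoid, at 100 uM. The labels' treatment tag reads DEX for every sample, so groups were taken from titles and descriptions. The labels used here name no strain, age, passage or vehicle. They also do not say whether a group's libraries came from different animals or cultures, so each p-value reflects the spread between these samples alone, and that spread may be technical.

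Libraries held 34835072 to 41676315 counts. Fkbp5, a textbook glucocorticoid receptor target, stood at 69.0, 71.0 and 69.3 CPM (counts relative to library size, scaled by TMM) in the controls and at 1290, 1390 and 1430 CPM with dexamethasone. Of 11 measured marrow stroma markers, none was at 0, and their summed level was 4381 to 4428 CPM in controls and 2966 to 2997 CPM with dexamethasone. The sum covers opposite changes. By the test given below, which called 64.0% of all tested genes, 4 of these markers were higher and 6 lower. Mean Prrx1 fell from 726 to 75.5 CPM and Pdgfrb from 616 to 137 CPM. Pdgfra rose from 598 to 964 CPM, and Thy1 stood at 133 and 134 CPM. Of 10 endothelial markers, Cldn5 and Emcn had no count, and the list summed to 5.70 to 6.97 and 2.95 to 4.15 CPM. Among its 3 tested markers, Tek was higher (log2 0.81), and Flt1 and Vwf were lower (log2 -1.34 and -2.15). Of 11 Schwann and neural markers, Rbfox3 had no count, Sox10 had 2 counts in each group, and the sum lay between 42.2 and 45.6 CPM in controls and between 124.5 and 127.5 CPM with dexamethasone, nearly all of it Map2. Of 12 macrophage and osteoclast markers, Acp5, Adgre1 and Cd163 had no count. The list summed to 12.3 CPM in each control and 9.13 to 9.85 CPM with dexamethasone. Most of it was Cd14, which was not called at 7.27 and 7.64 CPM. Of the 6 tested, 2 were called, both lower. Cd74 fell from 1.74 to 0.139 CPM and Cd68 from 1.21 to 0.509 CPM. Lymphocyte markers stayed at or below 0.345 CPM in sum, with Cd3d, Cd79a, Cd79b and Nkg7 at 0 among 8, and erythroid and granulocyte markers at or below 0.794 CPM, with Elane, Hbb and Mpo at 0 among 7. The part of these cell types in the results below was not tested.

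Dexamethasone libraries differed from controls in 25 of the 43 members with enough counts to test, 10 higher and 15 lower. Sema3d, Sema3e, Sema3a, Sema6b, Ephb6 and Unc5c rose at least 2-fold, and Ntn1, Sema6d, Slit2, Sema4a, Epha2 and Sema5b fell at least 2-fold. Calls were made where edgeR's quasi-likelihood p, adjusted over all 14111 tested genes, was under 0.05, and 64.0% of those genes were called, 32.3% higher and 31.7% lower. Members called made up 58.1% of those tested, and members both called and changed at least 2-fold made up 27.9%, against 15.6% of all tested genes. The libraries of the groups did not overlap for 26 of the 43, a pattern found in 66.9% of all tested genes. The median log2 fold change of the tested members was -0.03, against 0 for all tested genes, and the median size of change was 0.51 against 0.31. These counts describe the members that passed the filter on low counts and not all 66. Sema5b and Sema6d passed it through the control libraries alone and Sema6b through the dexamethasone libraries alone. Such a pass favours a difference, so the calls of these 3 support nothing, yet all 3 are counted in the totals and shares above. The tested members had a median level of 6.91 CPM, against 15.4 CPM over all tested genes. The part of level in these shares and in the size of change was not tested. In RNA from bulk cultures, fewer cells of a kind and less RNA per cell cannot be told apart.

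**Figure D1:**
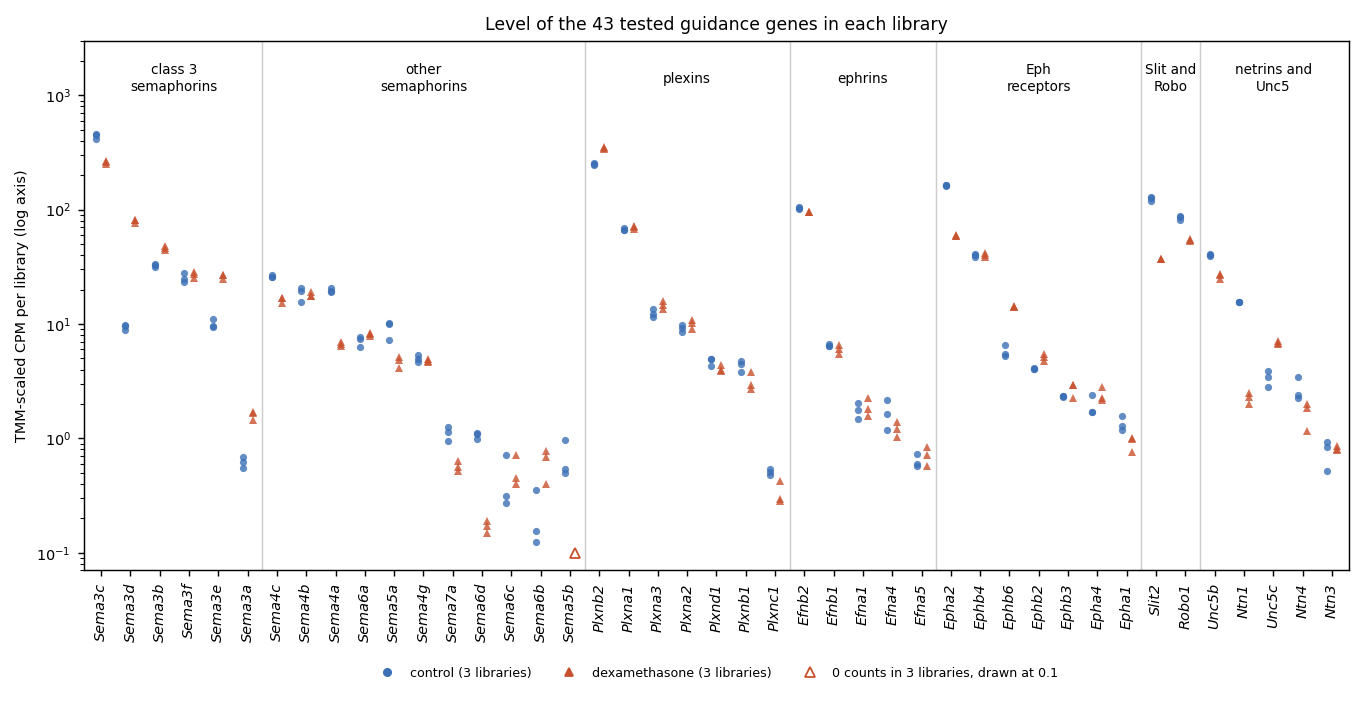
TMM-scaled CPM (log axis) of the 43 tested guidance genes in each of the 3 control (blue circles) and 3 dexamethasone (orange triangles) libraries, by family. The spread between replicates is small beside the gap between groups for genes such as Sema3d, Epha2, Slit2 and Ntn1, and Sema5b has no count with dexamethasone.

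**Figure D2:**
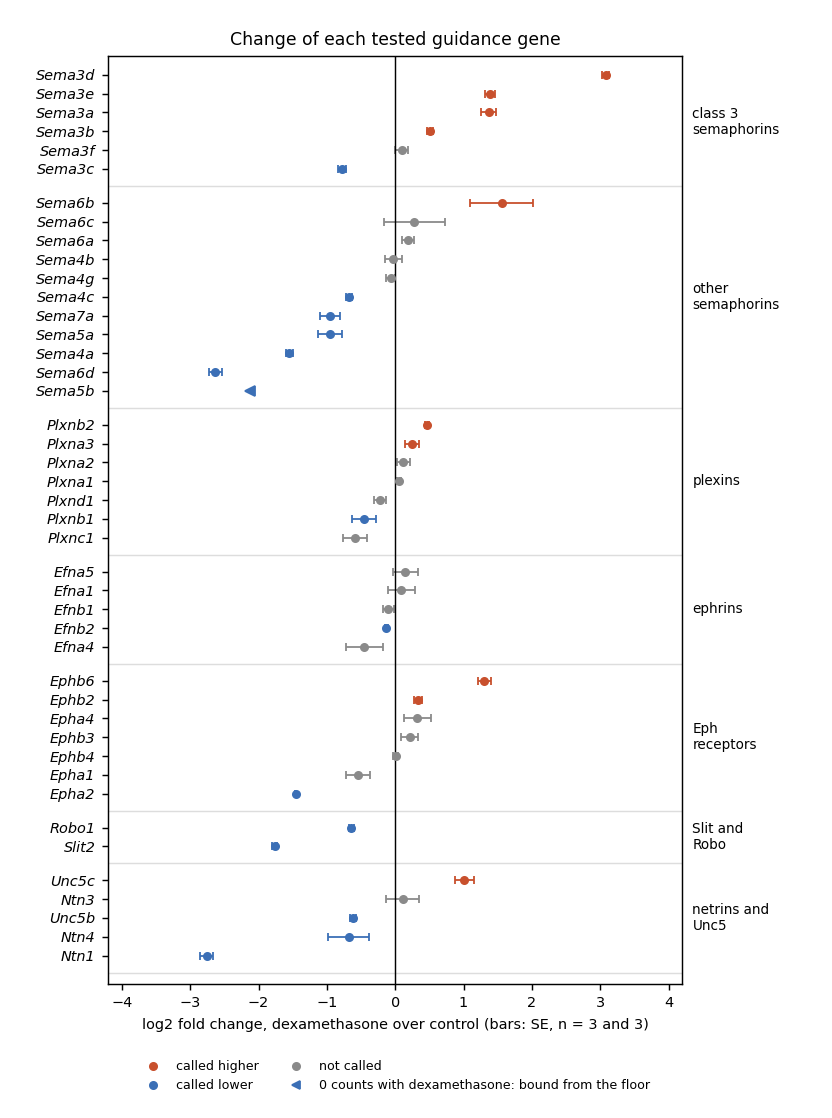
log2 fold change (dexamethasone over control, x axis) of each tested member, with SE bars over 3 and 3 libraries; the arrowhead for Sema5b is a bound from the floor of 6 counts per library. Class 3 semaphorins lie mostly to the right of 0, and Slit2, Robo1, Ntn1, Epha2 and most other semaphorins to the left.

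Among ligands and receptors alike, each family was dominated by 1 or a few genes. Levels between genes were compared as RPKM, the TMM-scaled CPM per kilobase of exon. In controls the highest were Sema3c at 87.0 ± 4.84 RPKM (SD, n = 3), Epha2 at 41.6 ± 0.429 RPKM, Plxnb2 at 38.5 ± 0.675 RPKM and Efnb2 at 24.5 ± 0.528 RPKM. Robo1 (17.2 ± 0.799 RPKM) and Slit2 (16.3 ± 0.724 RPKM) came next and did not differ beyond their spread. With dexamethasone the order began with Plxnb2 (53.1 ± 1.13 RPKM) and Sema3c (50.8 ± 1.71 RPKM), which lay within their spread of each other. Sema3d moved from place 19 to place 5 among the 66 members, while Epha2 moved from 2 to 6, Slit2 from 6 to 12 and Ntn1 from 9 to 21.

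Class 3 semaphorins, the secreted ligands, differed in make-up between the groups. Of 7 members 6 were tested, of which 4 rose, Sema3c fell and Sema3f was not called. That is 83.3% called, beside 64.0% of all tested genes. Sema3d (chromosome 4, 19224310 to 19413484, in the coordinates of the table, for which the sources used here name no rat build) had 8.81, 9.83 and 9.59 CPM in control replicates 1 to 3 and 77.0, 80.9 and 80.8 CPM in dexamethasone replicates 1 to 3. All 3 dexamethasone libraries were far above all 3 controls, and the log2 fold change was 3.08 ± 0.053 (SE; adjusted p = 3.95e-39), the highest among the tested members. Sema3e (chromosome 4, 17272511 to 17594598), a ligand that can bind plexin D1 without a neuropilin, went from 9.51, 11 and 9.54 to 25.0, 27.1 and 26.6 CPM. The groups did not overlap (log2 1.39 ± 0.077, adjusted p = 4.47e-21).

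Sema3a (chromosome 4, 18178656 to 18396035), the founding axon repellent of the class and a known regulator of bone mass, was scarce. It had 0.622, 0.684 and 0.550 CPM in controls and 1.66, 1.70 and 1.45 CPM with dexamethasone, resting on 73 and 189 counts. It rose with no overlap between groups (log2 1.37 ± 0.11, adjusted p = 1.61e-05). Sema3c (chromosome 4, 14318274 to 14490446), the most abundant ligand in both groups per length, went the other way. It fell from 461.5, 450.3 and 414 CPM to 266, 259 and 249 CPM (log2 -0.78 ± 0.055, adjusted p = 2.69e-18). Sema3b (chromosome 8, 116354073 to 116361343) stood at 31.6, 33 and 33.4 CPM and rose to 48.2, 44.1 and 46.5 CPM (log2 0.51 ± 0.044). That call was lost at a fixed dispersion (a biological coefficient of variation of 0.2; adjusted p = 0.111) and in a test for changes beyond 1.5-fold (adjusted p = 1). Sema3f had 25.4 ± 2.39 and 27.0 ± 1.79 CPM (SD, n = 3) with overlapping groups (adjusted p = 0.202), was called without control replicate 1 (log2 0.17, adjusted p = 0.0268), and shares 166 exonic bases with Gnat1.

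The summed level of the class was 108.2 ± 4.75 RPKM in controls and 95.2 ± 1.67 RPKM with dexamethasone, a ratio of 0.880. Sema3c made up 81.2%, 80.6% and 79.3% of that sum in control replicates 1 to 3 and 53.9%, 53.8% and 52.2% in dexamethasone replicates 1 to 3. Its share was lower in every dexamethasone library. The share of Sema3d went from 1.76% ± 0.151 to 16.9% ± 0.754 (SD, n = 3), and that of Sema3b from 12% ± 0.846 to 19.4% ± 0.698. The ratio of Sema3c to Sema3d levels per length dropped from 46.0 ± 4.6 to 3.16 ± 0.187.

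**Figure D3:**
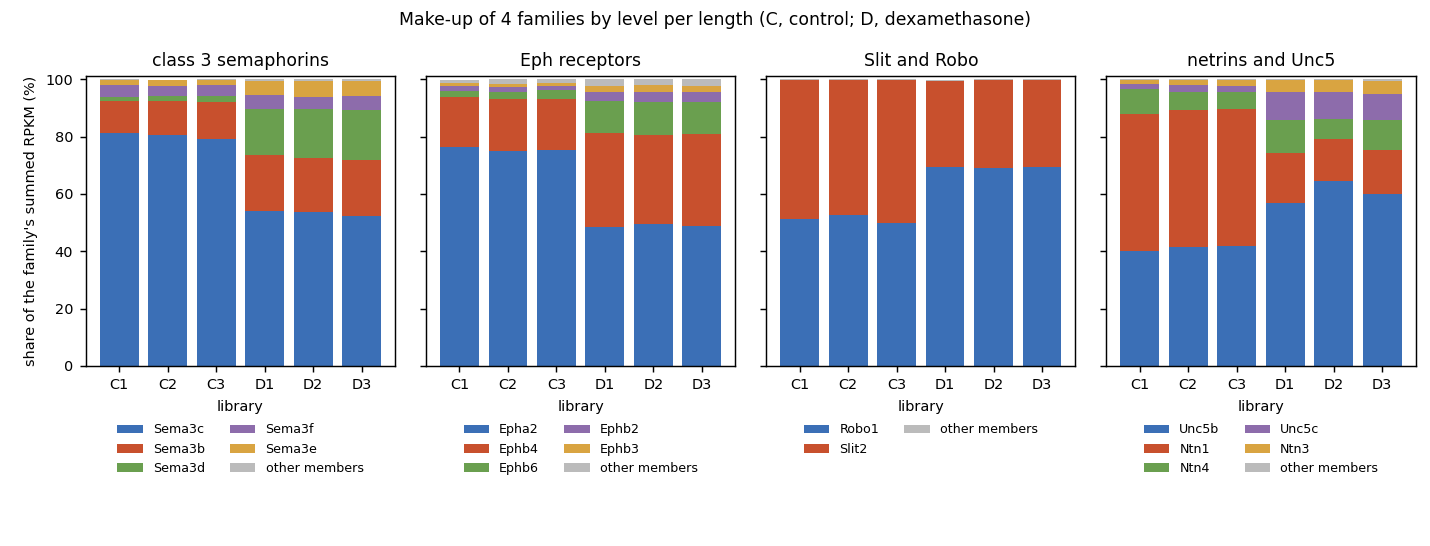
Share of each member in its family's summed RPKM (%, y axis) in each of the 3 control (C) and 3 dexamethasone (D) libraries, for class 3 semaphorins, Eph receptors, Slit and Robo, and netrins and Unc5. Sema3c, Epha2, Slit2 and Ntn1 take smaller shares in all 3 dexamethasone libraries than in any control.

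The class 3 members that rose most were neighbours. Sema3c, Sema3e, Sema3a and Sema3d all lie within 5095.2 kb of chromosome 4, in that order and on the same strand, with 13 other genes of the table between them. Of those, 3 were tested. Hgf, which encodes hepatocyte growth factor and adjoins Sema3c among the tested genes, fell from 366 ± 12.2 to 33.3 ± 2.95 CPM (log2 -3.46 ± 0.078, adjusted p = 2.54e-28). Cacna2d1, a calcium channel subunit, fell by 0.42 on the log2 scale, and Pclo, a presynaptic scaffold, rose by 0.61 from a low level of 1.27 ± 0.324 CPM. Along the stretch, the tested genes from Sema3c to Cacna2d1 were lower with dexamethasone and those from Pclo to Sema3d higher. Sema3b and Sema3f lie within 115.8 kb of chromosome 8, where Gnai2, a G protein subunit between them, rose by 0.65 and Gnat1 was not called.

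**Figure D4:**
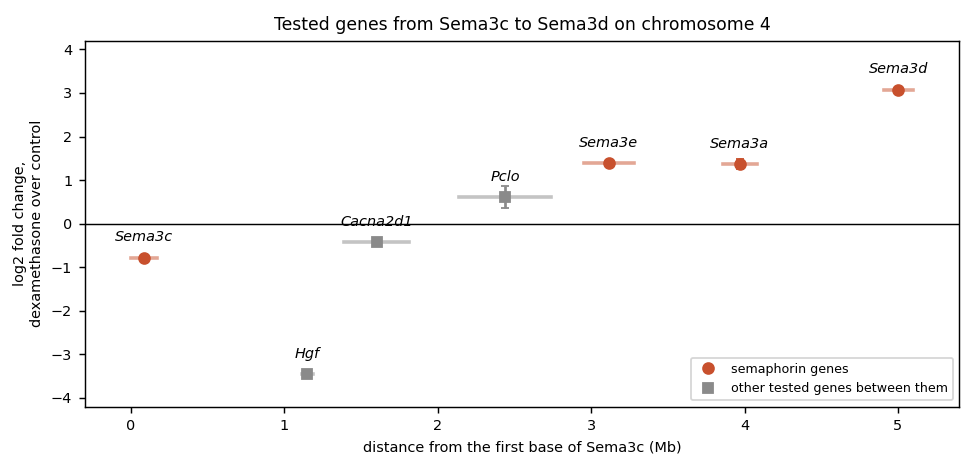
log2 fold change (y axis, SE bars over 3 and 3 libraries) of the 7 tested genes from Sema3c to Sema3d on chromosome 4, by distance from the first base of Sema3c (Mb); horizontal lines span each gene. Sema3c, Hgf and Cacna2d1 lie below 0, and Pclo, Sema3e, Sema3a and Sema3d above it.

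The other semaphorins are mostly membrane proteins. Of 13 members 11 were tested, with 1 higher, 6 lower and 4 not called, and a median log2 fold change of -0.68. That is 63.6% called, beside 64.0% of all tested genes. The only higher call, Sema6b, and the lower calls of Sema5b and Sema6d passed the filter through 1 group alone and support nothing. They are still counted in the tally and the median. Sema4a (chromosome 2, 187799568 to 187822997), known for its role in immune cell contacts, had 20.6, 19.1 and 19.4 CPM in controls and 6.70, 6.46 and 6.99 CPM with dexamethasone. It was lower in 3 of 3 libraries (log2 -1.55 ± 0.048, adjusted p = 4.83e-21). Sema4c, a ligand of plexin B2, went from 26.2 ± 0.455 to 16.3 ± 0.795 CPM (log2 -0.68), a call that was not made in the test beyond 1.5-fold (adjusted p = 0.102). It shares 47 exonic bases with AABR07067401.2 on the opposite strand.

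Sema4b (chromosome 1, 141986145 to 142014398) had a level per length of 5.34 ± 0.750 RPKM in controls and 5.24 ± 0.231 RPKM with dexamethasone, the highest of this family by the mean over both groups. In the controls Sema4c was higher, at 6.12 ± 0.106 RPKM, and with dexamethasone it stood below Sema4b, at 3.82 ± 0.186 RPKM. The groups of Sema4b overlapped, at 20.5, 15.6 and 19.3 CPM in controls and 17.6, 19.1 and 17.8 CPM with dexamethasone (adjusted p = 0.783). Sema5a and Sema5b, the class with thrombospondin repeats, were both lower. Sema5a fell from 10.1, 9.98 and 7.27 CPM to 4.83, 5.10 and 4.16 CPM (log2 -0.96 ± 0.18, adjusted p = 7.61e-09). In the controls Sema5b had 21, 38 and 20 counts, and in every dexamethasone library 0. With a floor of 6 counts per library, it was at least 4.36-fold lower. Sema5b passed the filter on low counts through the control libraries alone, so its call supports nothing.

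In class 6, Sema6d, a ligand of plexin A1, fell from 1.07 ± 0.071 to 0.169 ± 0.021 CPM (log2 -2.63, adjusted p = 9.39e-08), on 126 and 20 counts. Sema6b rose from 0.212 ± 0.125 to 0.623 ± 0.201 CPM on 25 and 75 counts (log2 1.56 ± 0.46, adjusted p = 0.00198). Sema6d and Sema6b each passed the filter on low counts through 1 group alone, so their calls support nothing. Sema6a and Sema6c were not called, with log2 fold changes of 0.19 and 0.28. Sema6a had groups that did not overlap and passed when scaled by library size alone (adjusted p = 0.0451). Sema7a, the only semaphorin anchored by a lipid, fell from 1.12 ± 0.161 to 0.575 ± 0.062 CPM (log2 -0.96, adjusted p = 0.00507), but was not called beyond 1.5-fold (adjusted p = 0.161). Sema4g was not called at 4.997 ± 0.368 and 4.78 ± 0.129 CPM. Sema4d, a ligand made by osteoclasts that acts on osteoblasts, had 22 and 36 counts and was not tested.

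Among plexins, the receptors for all these ligands, none was called at 2-fold or more. Of 9 members 7 were tested, with 2 higher, 1 lower and 4 not called, or 42.9% called beside 64.0% of all tested genes. Plxnb2 (chromosome 7, 130135464 to 130151880), the dominant plexin, had 255, 247 and 253 CPM in controls and 356, 341 and 346 CPM with dexamethasone. The groups were well apart, yet the size was small (log2 0.47 ± 0.023, adjusted p = 6.25e-19), and the call was lost at the fixed dispersion (adjusted p = 0.147) and beyond 1.5-fold (adjusted p = 1). It contributed 76.7% ± 0.135 of the plexin level per length in controls and 81.5% ± 0.059 with dexamethasone (SD, n = 3). Plxna3 rose by 0.24 and Plxnb1 fell by 0.46 on the log2 scale, each with overlapping groups.

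Both of those calls rested on small differences. Plxna3 was not called without control replicate 3 (adjusted p = 0.0729) or dexamethasone replicate 3 (0.0794), at the fixed dispersion (0.559) or beyond 1.5-fold (1). Plxnb1 was not called without dexamethasone replicate 3 (adjusted p = 0.062), at the fixed dispersion (0.2) or beyond 1.5-fold (1). Plxna1, second in level, stood at 67.6 ± 1.24 and 70.2 ± 1.93 CPM (adjusted p = 0.216) and was called with library size alone (adjusted p = 0.0343). Plxna2, Plxnc1 and Plxnd1 were not called. Plxnd1, the receptor of semaphorin 3E, had 4.74 ± 0.404 and 4.08 ± 0.250 CPM (adjusted p = 0.143), and Plxnc1, the receptor of semaphorin 7A, had 0.509 ± 0.035 and 0.335 ± 0.079 CPM (adjusted p = 0.197).

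The neuropilins, which lend class 3 semaphorins their binding site on the plexin complex, were very unequal. Nrp2 had 931, 929 and 912 CPM in controls and 421, 443.5 and 445 CPM with dexamethasone. Every dexamethasone library was below every control (log2 -1.08 ± 0.027, adjusted p = 1.05e-33). Nrp1 was near the floor, at 0.156, 0.101 and 0.250 CPM in controls and 0.474, 0.454 and 1.18 CPM with dexamethasone, on 20 and 84 counts. It was higher in 3 of 3 libraries (log2 2.04 ± 0.51, adjusted p = 2.01e-04), with dexamethasone replicate 3 above the others. Nrp1 passed the filter on low counts through the dexamethasone libraries alone, which favours a difference, so its call supports nothing.

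Of the 8 ephrins, the ligands of Eph receptors, 5 were tested and Efnb2 alone was called. That is 20% called, beside 64.0% of all tested genes. Efnb2 (chromosome 16, 86631064 to 86675049), the transmembrane ligand known for arterial identity and for signals between osteoclasts and osteoblasts, had 102, 106 and 104 CPM in controls and 94.95, 94.9 and 94.7 CPM with dexamethasone. The groups did not overlap, but the difference was small (log2 -0.13 ± 0.018, adjusted p = 9.47e-04) and was not called at the fixed dispersion (adjusted p = 0.778) or beyond 1.5-fold (adjusted p = 1). Efna1, Efna4, Efna5 and Efnb1 lay between -0.45 and 0.15 on the log2 scale. Efna4 (log2 -0.45, adjusted p = 0.0981) was called without control replicate 1 (log2 -0.64, adjusted p = 0.0249). The summed level of the family was 29.8 ± 0.594 and 27.5 ± 0.101 RPKM.

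Eph receptors changed at 2 genes above all. Of 13 members 7 were tested, with 2 higher, 1 lower and 4 not called, or 42.9% called beside 64.0% of all tested genes. Epha2 (chromosome 5, 159845774 to 159874206), a receptor for ephrin-A ligands and the most abundant Eph gene here, had 164, 161 and 164 CPM in controls and 59.5, 59.4 and 59.3 CPM with dexamethasone. It was lower in 3 of 3 libraries, with replicates within a few percent of each other (log2 -1.46 ± 0.0088, adjusted p = 1.54e-34). Ephb6 (chromosome 4, 70903253 to 70918514), a member whose kinase domain is inactive, rose from 5.29, 5.47 and 6.50 CPM to 14.3, 14.2 and 14.2 CPM. The groups did not overlap (log2 1.31 ± 0.091, adjusted p = 1.72e-16).

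Ephb4, the main receptor of ephrin-B2, held nearly the same level in both groups, at 38.9, 40.1 and 40.8 CPM in controls and 41.5, 38.5 and 40.3 CPM with dexamethasone (log2 0.01 ± 0.038, adjusted p = 0.915). The ratio of Epha2 to Ephb4 per length was 4.22 ± 0.114 in controls and 1.53 ± 0.057 with dexamethasone. The share of Epha2 in the Eph sum went from 75.5% ± 0.630 to 49.0% ± 0.551, and that of Ephb6 from 2.56% ± 0.266 to 11.3% ± 0.076. The sum itself was 55.1 ± 0.508 and 31.0 ± 0.379 RPKM, a ratio of 0.562. Ephb2 rose from 4.09 ± 0.057 to 5.15 ± 0.343 CPM (log2 0.33, adjusted p = 0.0204), a call that was lost without dexamethasone replicate 3 (adjusted p = 0.0839), at the fixed dispersion (0.397) and beyond 1.5-fold (1). Epha1, Epha4 and Ephb3 were not called, with log2 fold changes of -0.54, 0.33 and 0.21. Epha4 was called without control replicate 2 (log2 0.50, adjusted p = 0.0413), and Epha1, whose groups did not overlap (adjusted p = 0.0623), shares 145 exonic bases with Zyx on the opposite strand.

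Slit2 and its receptor Robo1 both fell, and they were the only tested members of their 7 genes. Slit2 (chromosome 14, 66831848 to 67170361), a large secreted repellent, had 130.2, 119 and 126 CPM in controls and 36.8, 36.9 and 37.2 CPM with dexamethasone. All dexamethasone libraries lay far below all controls (log2 -1.76 ± 0.037, adjusted p = 3.75e-35). Robo1 (chromosome 11, 9642365 to 10143317) went from 88.3, 85.7 and 80.5 CPM to 54.9, 53.7 and 54.5 CPM. It was lower in 3 of 3 libraries (log2 -0.64 ± 0.040, adjusted p = 1.53e-18), but not by the test beyond 1.5-fold (adjusted p = 0.114). Per length, the ratio of Slit2 to Robo1 went from 0.951 ± 0.056 to 0.438 ± 0.0057, and their family's sum from 33.6 ± 1.17 to 15.9 ± 0.113 RPKM.

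Netrins and Unc5 receptors moved in both directions. Of 9 members 5 were tested, with 1 higher, 3 lower and 1 not called, or 80% called beside 64.0% of all tested genes. Ntn1 (chromosome 10, 54761871 to 54967585), the secreted ligand netrin-1, had 15.5 CPM in each control and 2.51, 2.01 and 2.32 CPM with dexamethasone. It was the largest fall among members with a count in both groups (log2 -2.76 ± 0.091, adjusted p = 6.13e-26). Ntn4, a laminin-like netrin of basement membranes, fell from 3.47, 2.38 and 2.25 CPM to 1.99, 1.16 and 1.85 CPM (log2 -0.68 ± 0.30, adjusted p = 0.00369). That call depended on control replicate 1, without which the adjusted p was 0.0725, and it was not made beyond 1.5-fold (adjusted p = 0.516).

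Unc5b (chromosome 20, 30339673 to 30406295), the most abundant netrin receptor of the Unc5 type, had 39.6, 40.3 and 40.8 CPM in controls and 24.7, 27.2 and 26.9 CPM with dexamethasone. It was lower in 3 of 3 libraries (log2 -0.62 ± 0.046, adjusted p = 7.88e-14), though not by the test beyond 1.5-fold (adjusted p = 0.443). Unc5c (chromosome 2, 247248407 to 247397483) rose from 2.80, 3.90 and 3.45 CPM to 7.08, 6.63 and 6.77 CPM (log2 1.01 ± 0.14, adjusted p = 2.74e-09). The share of Ntn1 in the summed level of these 9 genes per length went from 47.9% ± 0.201 to 15.9% ± 1.53, and that of Unc5c from 2.08% ± 0.348 to 9.44% ± 0.363. The sum was 17.4 ± 0.079 and 7.75 ± 0.243 RPKM, a ratio of 0.444. Ntn3 was not called, at 0.760 ± 0.213 and 0.820 ± 0.036 CPM.

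No read of Dcc, the receptor for attraction to netrin-1, was counted in any of the 6 libraries, so its level lay below a floor of 0.142 to 0.170 CPM by library. Neo1, which encodes neogenin, a receptor of netrins and of repulsive guidance molecules, stood at 43.4, 43.9 and 42.9 CPM in controls and 46.1, 46.2 and 45.3 CPM with dexamethasone. It was not called (log2 0.08 ± 0.012, adjusted p = 0.127), except with library size alone (adjusted p = 0.0224).

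The remaining 23 members were too low to test. They held at most 58 counts over the 6 libraries (Sema4d), and Plxnb3, Robo4, an endothelial receptor, and Unc5d had no count. For Ephb1 the controls held 16 counts and the dexamethasone libraries 0, a ratio of 0 in read pairs (95% exact interval 0 to 0.586), and for Unc5a 12 and 0 (0 to 0.849). Both lay at or under the floor of 6 counts per library in each group's mean, so no fold is given. With all genes kept regardless of count, both were called (adjusted p = 0.00763 for Ephb1 and 0.0234 for Unc5a). Both stand out through 0 counts with dexamethasone and were called only without the filter, so these calls support nothing. Counts of Slit1 were 1 and 12 in the 2 groups, and those of Slit3 2 and 12, each a ratio of 6 (95% exact interval 0.728 to 276) in read pairs. The others were Sema3g, Sema4f, Plxna4, Efna2, Efna3, Efnb3, Epha3, Epha5, Epha7, Epha8, Epha10, Robo2, Robo3, Ntn5 and Unc5cl, with Sema3g and Efnb3 the highest at 38 counts each. With values this low, a difference in these genes was not detectable unless large.

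Partner genes, listed from general knowledge as co-receptors, alternative ligands and effectors inside the cell, numbered 72, of which 71 were matched and 56 tested. Of these 21 rose, 22 fell and 13 were not called, or 76.8% called beside 64.0% of all tested genes, with a median log2 fold change of 0.01. The tested partners had a median level of 30.5 CPM, against 15.4 CPM over all tested genes. The part of level in the share called was not tested. The calls include Nrcam, which passed the filter on low counts through the controls alone. They also include Ngef and Nrp1, which passed it through the dexamethasone libraries alone, and such calls support nothing. Among co-receptors and alternative ligands, Met, the receptor of hepatocyte growth factor that also associates with B-type plexins, rose from 12.2, 12.7 and 12.8 CPM to 50.4, 51.6 and 49.3 CPM (log2 2 ± 0.027, adjusted p = 2.98e-31). The groups were widely apart. Draxin, a secreted ligand of Dcc, rose from 2.14 ± 0.119 to 4.13 ± 0.158 CPM (log2 0.95, adjusted p = 9.75e-07). Flrt2 fell by 0.80 and Flrt3 rose by 0.87 on the log2 scale; both encode membrane ligands of Unc5 receptors. Rgma, a ligand of neogenin, rose by 0.73, and its relative Rgmb fell by 0.34.

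Among effectors of plexins, Mical2, an oxidase that takes actin filaments apart, fell from 61.0, 59.7 and 61.0 CPM to 11.2, 10.01 and 10.4 CPM (log2 -2.52 ± 0.049, adjusted p = 4.44e-35). Rnd1, a small GTPase that binds plexins, fell from 32.8 ± 1.12 to 9.04 ± 1.09 CPM (log2 -1.86), and Farp1, an exchange factor, from 109 ± 1.22 to 30.6 ± 1.32 CPM (log2 -1.84). All 3 had groups that did not overlap. Fes, a tyrosine kinase below 1 CPM on average, fell by 1.88 on the log2 scale. Nrcam, an adhesion molecule among the co-receptors, was lower by a log2 of -2.14 on 63 and 14 counts. Nrcam passed the filter on low counts through the control libraries alone, so its call supports nothing. Of the 15 tested effectors of semaphorins and plexins, 6 rose and 7 fell, or 86.7% called beside 64.0% of all tested genes. The rises were smaller, between 0.22 and 0.61 on the log2 scale, and included Arhgef12, an exchange factor bound by B-type plexins (log2 0.44), and Dpysl2, a microtubule-binding mediator of semaphorin 3A (log2 0.61).

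Of 12 tested effectors of Eph receptors, 7 rose and 3 fell, or 83.3% called beside 64.0% of all tested genes. Among the rises, Ngef (11 and 42 counts) passed the filter on low counts through the dexamethasone libraries alone, so its call supports nothing. Tiam1, an activator of the GTPase Rac, rose from 4.04, 5.67 and 4.45 CPM to 11.7, 12.2 and 13.6 CPM (log2 1.40 ± 0.16, adjusted p = 4.57e-15). Sipa1l1, a regulator of the GTPase Rap, and Nck2, an adaptor, rose by 0.99 and 0.98 on the log2 scale. Rasa1, a Ras-inactivating protein that binds Eph receptors, fell from 150.1 ± 2.53 to 90.5 ± 2.92 CPM (log2 -0.73). Among effectors of Robo and netrin receptors, 3 rose and 7 fell of 15 tested, or 66.7% called beside 64.0% of all tested genes. Srgap3, a GTPase-activating protein of the Slit and Robo pathway, rose from 0.674, 1.06 and 0.799 CPM to 7.93, 8.87 and 9.48 CPM (log2 3.37 ± 0.20, adjusted p = 8.71e-23). Its relative Srgap1 rose by 0.34, and Srgap2 was not called at 106 ± 2.18 and 107 ± 0.925 CPM. Mtss1, an actin-binding membrane protein, rose from 11.8 ± 0.523 to 46.1 ± 0.201 CPM (log2 1.97), and Kalrn, an exchange factor, fell from 297 ± 9.65 to 176 ± 4.64 CPM (log2 -0.75).

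**Figure D5:**
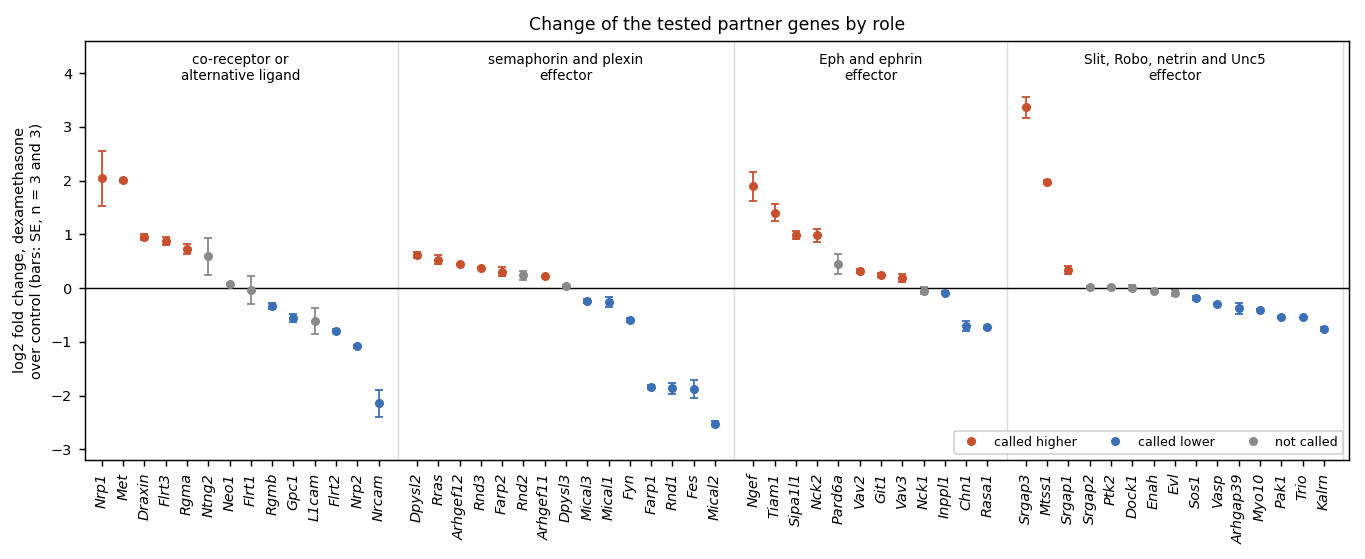
log2 fold change (dexamethasone over control, y axis, SE bars over 3 and 3 libraries) of the 56 tested partner genes by role. Mical2, Rnd1, Farp1 and Fes lie lowest among plexin effectors, and Srgap3 and Mtss1 highest among effectors of Robo and netrin receptors.

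Set side by side by some of the known pairs, ligand and receptor did not always move alike. Slit2 and Robo1 were both lower (log2 -1.76 and -0.64), as were Ntn1 and Unc5b (log2 -2.76 and -0.62). Unc5c, another netrin receptor gene, was higher (log2 1.01), and Neo1 was not called (log2 0.08). Sema3e was higher (log2 1.39) with no call for Plxnd1 (log2 -0.22). Efnb2 was slightly lower (log2 -0.13) with no call for Ephb4 (log2 0.01). Sema7a was lower (log2 -0.96) with no call for Plxnc1 (log2 -0.59). Sema4c was lower (log2 -0.68) while its receptor gene Plxnb2 was higher (log2 0.47). Sema3a was higher (log2 1.37) at low counts. Its neuropilin gene Nrp1 (log2 2.04) passed the filter on low counts through the dexamethasone libraries alone, so its rise supports nothing. Sema3c and Nrp2 were both lower (log2 -0.78 and -1.08). Of the class 3 ligand genes not paired here, Sema3d and Sema3b were higher (log2 3.08 and 0.51) and Sema3f was not called (log2 0.09). Epha2 was lower (log2 -1.46) with no call for its ligand gene Efna1 (log2 0.09, adjusted p = 0.732). All values come from the same 6 libraries, and whether the changes within a pair differ was not tested.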

How the data were processed

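Per the file headers, the authors deposited whole-number read counts for each gene in 6 libraries, beside exon positions and exon length. The submitters' processing notes name mm10, a mouse build, but the table holds rat genes; for its rat build, aligner, counting program and strand setting the sources used here give nothing. Of values from 1 to 20 counts, 70.3% were even, so a floor of 6 counts (3 read pairs) per library was used and ratios at low counts compare numbers of read pairs (counts divided by 2, rounded up). Intervals and floors cover counting error only.

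Genes passing filterByExpr (14111 of 30211) received TMM factors, and edgeR 4.0.16 in R 4.3.3 fitted a robust quasi-likelihood model with no covariate, with Benjamini-Hochberg adjustment over all of them. SEs come from log2 CPM with a prior count of 2. Scripts were tested on simulated data. Alternatives included DESeq2 1.42.0. The members and lists were chosen with earlier results of these data known. In each family, the called members of at least 1 CPM and 2-fold, up to 5, and the highest per length were given in full. In each partner role the 3 largest called changes at 1 CPM or more, and Nrp1, Nrp2, Neo1 and Dcc, were named. Other genes named, among them Sema5b, Sema6b, Ephb4, Fes and Nrcam, were chosen after their values were seen.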

Additional observations from a re-analysis of the deposited data

How the results depend on the processing

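Of the 43 tested members, all 25 called ones kept their direction under every setting that tested them. Relative log expression size factors, DESeq2, the replicate block and no filter on low counts left each of the 43 calls as it was. Library size alone gained Sema6a and Plxna1, and without the filter Unc5a and Ephb1 were also called, making 17 lower. With counts divided by 2, Sema5b, Sema6b, Sema6c and Plxnc1 were too low to test, and 9 higher and 14 lower were called. At a biological coefficient of variation of 0.2, 6 members were higher and 13 lower, and in the test beyond 1.5-fold, 6 and 8. For partner genes these settings gave 12 and 10 higher and 11 and 9 lower, and for all genes 1993 and 1549 higher and 1700 and 1278 lower, beside 4559 and 4468. Leaving out each library in turn gave 8 to 11 members higher and 14 to 15 lower, 20 to 21 partners higher and 19 to 22 lower, and 4334 to 4464 and 4218 to 4333 over all genes. The common biological coefficient of variation estimated over the tested genes was 3.66%, well under the fixed 0.2. Libraries of the same group correlated at 0.994 or more. The cause of these shifts was not tested. Signs turned only in members that were not called. Leaving out each library in turn gave Sema4b -0.138 to 0.054 (0.054 and 0.006 without control replicates 1 and 3; 0.011 with library size alone), Ephb4 -0.015 to 0.039 (-0.013 without control replicate 1, -0.015 without dexamethasone replicate 1), Ntn3 -0.102 to 0.273 (-0.102 without control replicate 1), Efna1 -0.047 to 0.211 (-0.026 without control replicate 2, -0.047 without dexamethasone replicate 2) and Sema6c -0.014 to 0.833 (-0.014 without dexamethasone replicate 3).

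The values gave no sign that the replicate numbers paired the samples. Deviations from the group means correlated at 0.003, -0.008 and 0.020 for the numbers 1 to 3. Control replicate 1 was closest to dexamethasone replicate 2 (0.031). Correlations this small cannot tell whether samples shared an animal or culture. With the number as a replicate block, 10 members were higher and 15 lower, 21 and 22 partners, and 4553 and 4438 of all genes. The 23 untested members had mean levels of at most 0.242 CPM, beside a floor of 0.142 to 0.170 CPM by library. Whether depth or absent expression left them untested was not tested. The median of all genes moved by 0.04 at most between scalings.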
